A study of Mus with 8 samples.

Results

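Transcripts of 6 cytokine genes were followed in monocytes from mouse bone marrow: Il1a, Il1b, the interleukin-1 receptor antagonist gene Il1rn, Il6, Tnf and Il10. The genes were picked by a list of Ensembl IDs, a rule that itself uses no measured value although earlier results of these data were known, and are 6 of the 17640 gene rows in the deposited count table. All 6 rows were present, and all 6 passed the filter on low counts that left 14785 genes for testing. The 8 libraries form 4 groups of 2. Control monocytes came from mice carrying Vav-iCre and mutant monocytes from mice carrying Vav-iCre and a knock-in of Jak2 V617F, all on C57BL/6. Cells of each genotype were encapsulated in a viscous or an elastic hydrogel, both described as stiff, and RNA was taken on day 3. Both genotypes therefore carry the Cre transgene, whose Vav promoter is active in blood-forming cells, and no Cre-free group was analysed here. All cultures received PGE2 at 100 ng/mL, GM-CSF at 100 ng/mL and IL4 at 200 ng/mL, so no library shows these genes without those factors. Each genotype has 2 numbers in its sample titles, and each number occurs once in each matrix. In ascending order these numbers are called C1 and C2 for control cells and J1 and J2 for Jak2 V617F cells. What a number stands for (an animal, a pool or a culture day) is not stated in the labels, which also give no ages. The p-values below therefore measure only library-to-library spread, and part of that spread may be technical.

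Interleukin-1α and interleukin-1β, the products of Il1a and Il1b, are agonists of the same receptor, IL1R1, and set off NF-κB signalling. Interleukin-1β is made as an inactive precursor that is cut before it acts, so its transcript is not a measure of active cytokine. The product of Il1rn occupies the same receptor without activating it. TNF and interleukin-6 are the other classical inflammatory cytokines of myeloid cells, and interleukin-6 signals through gp130 and JAK kinases, mainly to STAT3. Interleukin-10 is an inhibitory cytokine that lowers the output of inflammatory cytokines from monocytes and macrophages. PGE2 is known to lower TNF and to raise IL-10 in myeloid cells, and GM-CSF with IL4 is the usual mixture for growing dendritic-like cells from monocytes.

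The table names genes by Ensembl ID alone. The IDs were ENSMUSG00000027399 for Il1a, ENSMUSG00000027398 for Il1b, ENSMUSG00000026981 for Il1rn, ENSMUSG00000025746 for Il6, ENSMUSG00000016529 for Il10 and ENSMUSG00000024401 for Tnf, and the symbols are those given with the IDs when the genes were chosen. In RefSeq on GRCm38.p6, matched by symbol, all 6 are protein-coding genes. Il1a spans chromosome 2 from 129299609 to 129310186 and Il1b lies on the same chromosome from 129364569 to 129371164, 54382 bp away. Il1rn lies 104.9 Mb from that pair, on chromosome 2 from 24336860 to 24351491. Il6 spans chromosome 5 from 30013114 to 30019975, Il10 chromosome 1 from 131019845 to 131024970 and Tnf chromosome 17 from 35199367 to 35202007. The reference held an Ensembl ID for 0 of its 49997 genes, so no other row could be given a name. Receptors and targets of these cytokines, Jak2 itself and markers of monocytes or other cell types were for that reason not examined, and the labelled cell type was not checked.

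The libraries held 30632355 to 38408851 counts. Both libraries of control number C1 stood apart from the other 6. They lay at 69.4 and 78.2 on the first principal component of all tested genes, which carried 41.5% of the variance, and the other 6 lay between −37.1 and −10.9. For most results below that rest on control cells, values without that number are therefore given as well. Levels are in CPM, counts scaled to a common library total with TMM factors, which set most genes equal between libraries. CPM is not corrected for transcript length, so one gene's level is compared between libraries and never with another gene's level. In bulk RNA, a smaller share of cells making a transcript and less transcript per cell cannot be told apart.

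Il1a had its lowest levels in control number C1 and its highest in the elastic matrix of the other 3 numbers. In the viscous matrix its level was 302 CPM in control C1, 2039 CPM in control C2, 1916 CPM in Jak2 V617F J1 and 1887 CPM in Jak2 V617F J2. In the elastic matrix it was 290 CPM in control C1, 3175 CPM in control C2, 3311 CPM in Jak2 V617F J1 and 3236 CPM in Jak2 V617F J2. The Jak2 V617F libraries of one matrix lay within 1.02-fold of each other, and their viscous and elastic ranges did not overlap. The control libraries of one matrix differed by 6.76-fold in the viscous and 10.95-fold in the elastic gel.

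Il1b followed a similar order with more spread among the viscous libraries. Its viscous levels were 225 CPM in control C1, 1310 CPM in control C2, 2198 CPM in Jak2 V617F J1 and 1097 CPM in Jak2 V617F J2. Its elastic levels were 313 CPM in control C1, 3590 CPM in control C2, 3870 CPM in Jak2 V617F J1 and 3284 CPM in Jak2 V617F J2. The 3 elastic libraries other than C1 lay above every viscous library, and the viscous Jak2 V617F pair differed by 2.00-fold. Control C1 was lower than every other library in both gels.

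Il1rn, the antagonist, varied least between libraries. In the viscous matrix it stood at 329 CPM in control C1, 710 CPM in control C2, 398 CPM in Jak2 V617F J1 and 617.4 CPM in Jak2 V617F J2. In the elastic matrix it stood at 560 CPM in control C1, 669 CPM in control C2, 586 CPM in Jak2 V617F J1 and 660 CPM in Jak2 V617F J2. The elastic libraries spanned a narrow range that fell within the viscous range, and the highest library of all was a viscous one, control C2. Control C1 was lowest in each gel, but its elastic library was above 2 viscous ones.

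**Figure D1:**
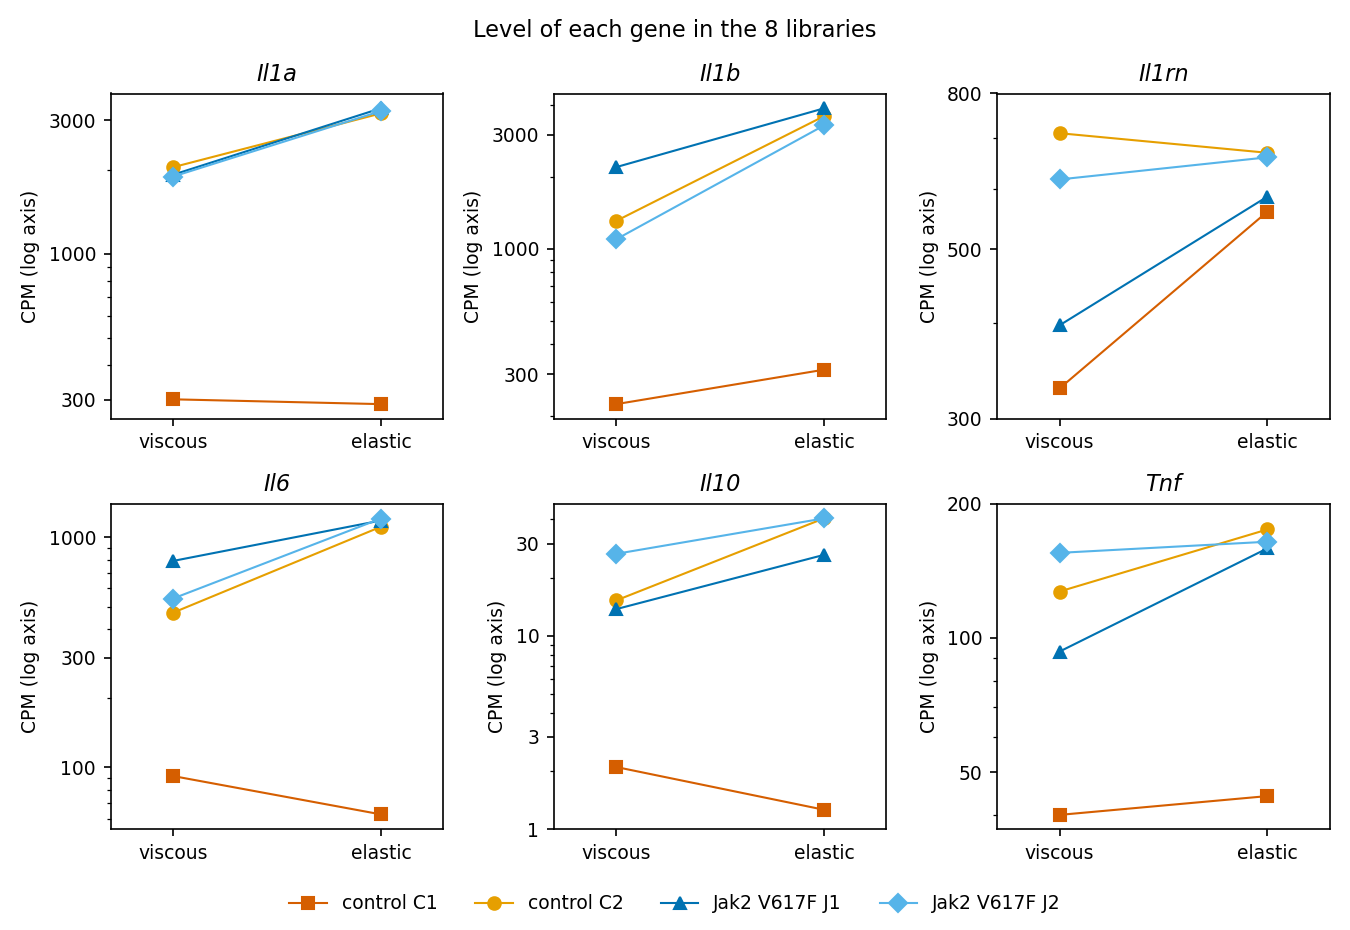
Levels of the 6 genes in each of the 8 libraries, in CPM on a logarithmic axis, with lines joining the viscous and the elastic library of the same title number. In the panels of Il1a, Il1b, Il6, Il10 and Tnf both libraries of control number C1 lie below all other libraries, while in the Il1rn panel its elastic library, at 560 CPM, lies above 2 viscous libraries.

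Il6 had control libraries that differed by 5.12-fold in the viscous and 17.8-fold in the elastic gel. Its viscous levels were 91.8 CPM in control C1, 470 CPM in control C2, 789 CPM in Jak2 V617F J1 and 542 CPM in Jak2 V617F J2. Its elastic levels were 62.5 CPM in control C1, 1110 CPM in control C2, 1182 CPM in Jak2 V617F J1 and 1205 CPM in Jak2 V617F J2. Outside number C1 the elastic libraries all lay above the viscous ones, and the elastic Jak2 V617F pair lay within 1.02-fold of each other. In number C1 the order was the opposite, with the elastic library below the viscous one.

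Tnf differed less between the gels. In the viscous matrix it stood at 40.1 CPM in control C1, 127 CPM in control C2, 93.2 CPM in Jak2 V617F J1 and 155 CPM in Jak2 V617F J2. In the elastic matrix it stood at 44.2 CPM in control C1, 175 CPM in control C2, 159 CPM in Jak2 V617F J1 and 164 CPM in Jak2 V617F J2. The 3 elastic libraries other than C1 were again above all viscous ones, but the gap between 155 and 159 CPM was small.

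Il10, the inhibitory cytokine, rested on the fewest counts, 39 and 77 in the libraries of control C1 and 490 to 1301 in the other 6. Its viscous levels were 2.10 CPM in control C1, 15.2 CPM in control C2, 13.7 CPM in Jak2 V617F J1 and 26.6 CPM in Jak2 V617F J2. Its elastic levels were 1.26 CPM in control C1, 40.5 CPM in control C2, 26.2 CPM in Jak2 V617F J1 and 40.5 CPM in Jak2 V617F J2. Without C1 the gels still overlapped for this gene, since the viscous library of J2 and the elastic library of J1 were level. The gap between the controls was 7.27-fold in the viscous and 32.2-fold in the elastic gel.

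For 5 of the 6 genes, Il1rn being the exception, both libraries of control C1 lay below all other libraries, an order shown by 14.8% of the tested genes. The size of the gap was less common than its direction. On the log2 scale the smaller of the C2 minus C1 differences in the 2 gels was 2.83 for Il10, 2.76 for Il1a, 2.54 for Il1b, 2.36 for Il6 and 1.66 for Tnf. A gap at least as large in both gels was shown by 0.365% of tested genes for Il10, 0.399% for Il1a, 0.487% for Il1b, 0.609% for Il6 and 1.35% for Tnf. For Il1rn the smaller difference was 0.26, which 16.5% of genes equalled or exceeded. The agonists, Il6, Il10 and Tnf were thus all lower in 1 of the 2 control numbers whichever gel the cells were in, and Il1rn much less so. What number C1 marks is not given, and the part of cell make-up or RNA quality in this gap was not tested.

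The matrix comparison asks whether cells in an elastic gel differ from cells in a viscous gel. Within a title number, the elastic to viscous ratio of Il1b was 1.39 in control C1, 2.74 in control C2, 1.76 in Jak2 V617F J1 and 2.99 in Jak2 V617F J2. Tnf was the other gene above 1 in every number, at 1.10, 1.38, 1.70 and 1.06 in that order. That order was shown by 10.6% of tested genes, beside 2 of these 6.

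For Il1a the ratio was 0.961 in control C1, 1.56 in control C2, 1.73 in Jak2 V617F J1 and 1.71 in Jak2 V617F J2. Il6 had ratios of 0.682, 2.36, 1.50 and 2.23 in the same order of numbers, and Il10 had 0.601, 2.66, 1.91 and 1.53. Both control numbers thus lay on opposite sides of 1 for Il1a, Il6 and Il10. Il1rn showed the reverse order between the control numbers, with 1.70 in control C1 and 0.943 in control C2. Its ratios in Jak2 V617F cells were above 1 as for those genes, at 1.47 in J1 and 1.07 in J2. Leaving out C1, all genes but Il1rn were higher in the elastic gel in all 3 remaining numbers, 5 of 6 beside 15.7% of tested genes. The 3 elastic libraries lay wholly above the 3 viscous ones for Il1a, Il1b, Il6 and Tnf, 4 of 6 beside 7.6% of tested genes. Over all 8 libraries that separation held for 0 of 6, beside 2.07% of tested genes.

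**Figure D2:**
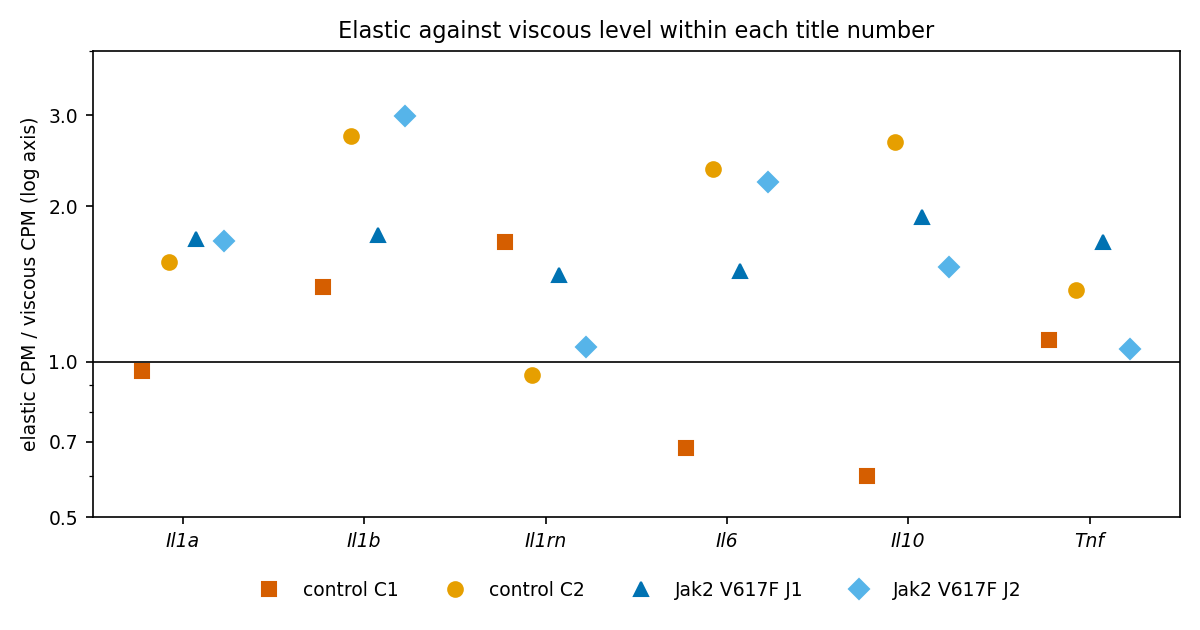
Ratio of the elastic to the viscous level of each gene within each title number, on a logarithmic axis, with a line at a ratio of 1. For Il1a, Il6 and Il10 the point of control C1 lies below 1, at 0.961, 0.682 and 0.601, and the other 3 numbers lie above it, while for Il1rn control C2 is the point below 1.

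Fitted over all 8 libraries, none of these differences passed the test. Averaged over genotypes, the elastic minus viscous log2 fold change was 0.68 for Il1a (SE 0.81, edgeR adjusted p = 0.958) and 1.23 for Il1b (SE 0.83, edgeR adjusted p = 0.914). It was 0.95 for Il6 (SE 0.86, edgeR adjusted p = 0.940), 1.00 for Il10 (SE 0.99, edgeR adjusted p = 0.952), 0.39 for Tnf (SE 0.52, edgeR adjusted p = 0.958) and 0.27 for Il1rn (SE 0.27, edgeR adjusted p = 0.953). All 6 estimates were above 0, with a median of 0.81, beside −0.0043 over all tested genes, and every interval included 0. The 95% interval of Il1b ran from −0.75 to 3.21 and that of Il1a from −1.26 to 2.61, in a fit that takes libraries of the same title number as separate. edgeR's quasi-likelihood test called 0 of 6, beside 0% of the 14785 tested genes, of which 928 had an unadjusted p under 0.05. DESeq2 on the same counts also called 0 of 6, beside 0.906% of tested genes.

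Without the libraries of control C1 the estimates of all genes but Il1rn were close to these, and the errors of all 6 were smaller. No control group then had a replicate, so the spread in this fit came from the Jak2 V617F pairs alone. The smaller errors and the calls below therefore hold no spread between control numbers. The log2 fold change was 0.71 for Il1a (SE 0.14, 95% interval 0.37 to 1.05), 1.29 for Il1b (SE 0.31, 0.52 to 2.05), 1.04 for Il6 (SE 0.18, 0.58 to 1.50) and 1.07 for Il10 (SE 0.31, 0.29 to 1.85). These intervals lay above 0 before adjustment, and the edgeR adjusted p-values were 0.192, 0.258, 0.172 and 0.332. Tnf stood at 0.42 (SE 0.21) and Il1rn at 0.11 (SE 0.20), with intervals that included 0. edgeR called 0 of 6 here too, beside 0.0133% of genes. DESeq2 called 3 of 6 higher in the elastic gel, namely Il1a (adjusted p = 2.55e-09), Il6 (adjusted p = 7.99e-07) and Il10 (adjusted p = 0.0229), beside 2.29% of genes. The calls thus differed between the tools, and in DESeq2 between the fits with and without C1. With C2 left out in place of C1, again with no control replicate, Il6 stood at 0.14 (SE 0.18) and Il10 at −0.0071 (SE 0.34). Il1a stood at 0.36 (SE 0.13), Il1b at 0.80 (SE 0.30), Il1rn at 0.53 and Tnf at 0.26. Intervals above 0 before adjustment were not particular to leaving out C1, since at least that of Il1a lay above 0 here too.

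**Figure D3:**
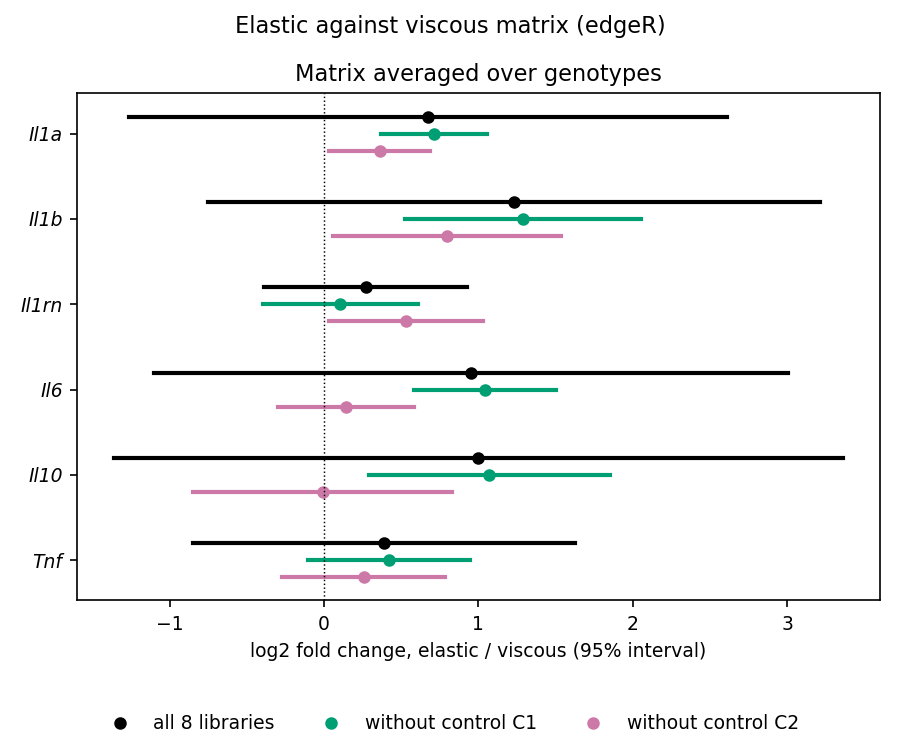
Elastic minus viscous log2 fold change of each gene, averaged over genotypes, with 95% intervals from edgeR fits on all 8 libraries and with each control number left out. With either control number left out, the spread comes from the Jak2 V617F pairs alone. Intervals on all 8 libraries include 0 for every gene, and with C1 left out the averaged intervals of Il1a, Il1b, Il6 and Il10 lie above 0, with lower ends at 0.37, 0.52, 0.58 and 0.29.

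Within Jak2 V617F cells the elastic minus viscous log2 fold change was 0.78 for Il1a, 1.12 for Il1b and 0.84 for Il6. It was 0.73 for Il10, 0.38 for Tnf and 0.30 for Il1rn. The fit over 8 libraries takes its spread from all groups, and its standard error for Il1a was 1.14, with an edgeR adjusted p of 1.00. When the 4 Jak2 V617F libraries were fitted alone, the estimate for Il1a was 0.78 with a standard error of 0.16 and an edgeR adjusted p of 0.295. Il6 then stood at 0.84 (SE 0.21, edgeR adjusted p = 0.382). In the fit over 8 libraries, single Jak2 V617F libraries moved Il1b, Il10, Tnf and Il1rn by over 1.5 times. Without the viscous library of J1, Il1b stood at 1.71, Il10 at 0.33, Tnf at 0.059 and Il1rn at 0.014, and without that of J2 they stood at 0.70, 1.28, 0.79 and 0.65. Il10 stood at 0.39 without the elastic library of J2. edgeR called 0 of 6 either way, beside 0% of genes in the fit over 8 libraries, where 455 genes had an unadjusted p under 0.05, and DESeq2 called 0 of 6 beside 0.237%. With the control C1 libraries out of the fit, DESeq2 called Il1a (adjusted p = 2.89e-08) and Il6 (adjusted p = 0.00427) higher in the elastic gel in Jak2 V617F cells, 2 of 6 beside 1.26% of genes.

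Within control cells the estimates rested on title numbers that disagreed. The log2 fold change was 0.57 for Il1a (SE 1.14), 1.35 for Il1b (SE 1.17), 1.06 for Il6 (SE 1.21), 1.27 for Il10 (SE 1.41), 0.39 for Tnf (SE 0.73) and 0.24 for Il1rn (SE 0.39). limma-voom, which averages on the log scale, put the median of the 6 at 0.32 in control cells, beside 0.81 in edgeR, and at 0.78 in Jak2 V617F cells, beside 0.76. edgeR called 0 of 6, with adjusted p-values from 0.985 to 0.988, beside 0% of genes, of which 717 had an unadjusted p under 0.05, and DESeq2 called 0 of 6 beside 0.237%. With control C2 alone the values were 0.64 for Il1a, 1.46 for Il1b, 1.24 for Il6 and 1.41 for Il10. With control C1 alone they were −0.062 for Il1a, 0.47 for Il1b, −0.56 for Il6 and −0.74 for Il10. Il1rn went the other way, at −0.083 with C2 alone and 0.76 with C1 alone. In the fit that kept C2 as the lone control, whose spread is taken from the Jak2 V617F pairs, DESeq2 called Il1a (adjusted p = 0.0229) and Il6 (adjusted p = 0.00472), 2 of 6 beside 0.692% of genes.

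Whether the matrix effect differed between genotypes was tested as the Jak2 V617F minus control difference of the log2 fold changes. It was 0.22 for Il1a (95% interval −3.64 to 4.07), −0.23 for Il1b (−4.13 to 3.68), −0.22 for Il6 (−4.29 to 3.85) and −0.55 for Il10 (−5.23 to 4.14). For Tnf it was −0.012 (−2.48 to 2.46) and for Il1rn 0.053 (−1.26 to 1.36). These intervals were wide enough to hold 2-fold differences in either direction for every gene, so the data did not show the matrix effect to be alike or unlike in the 2 genotypes. edgeR called 0 of 6 with adjusted p-values of 1.00, beside 0% of genes, of which 254 had an unadjusted p under 0.05, and DESeq2 called 0 of 6 beside 0.0135%. For all genes but Il1a the sign depended on the control number kept. Il1a stood at 0.14 without C1 and 0.84 without C2, while Il6 stood at −0.40 (SE 0.36) without C1 and at 1.40 (SE 0.36) without C2.

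The genotype comparison asks whether Jak2 V617F cells differ from control cells in the same gel. In the viscous gel the Jak2 V617F minus control log2 fold change was 0.70 for Il1a (SE 1.14), 1.10 for Il1b (SE 1.17), 1.24 for Il6 (SE 1.22), 1.22 for Il10 (SE 1.41), 0.57 for Tnf (SE 0.73) and −0.033 for Il1rn (SE 0.39). In the elastic gel it was 0.92 for Il1a (SE 1.15), 0.87 for Il1b (SE 1.16), 1.03 for Il6 (SE 1.21), 0.67 for Il10 (SE 1.38), 0.56 for Tnf (SE 0.73) and 0.020 for Il1rn (SE 0.39). The median of the 6 was 0.90 in the viscous and 0.77 in the elastic gel, and 1.36 and 1.77 in limma-voom, which called none of them. For all genes but Il1rn, every Jak2 V617F library lay above both libraries of control C1, while control C2 lay among or close to them. edgeR called 0 of 6 in each gel, with adjusted p-values from 0.789 to 0.985 in the viscous and from 0.941 to 0.995 in the elastic gel, beside 0% of genes. Unadjusted p-values under 0.05 were found for 1081 genes in the viscous and 654 in the elastic gel. DESeq2 called 0 of 6 in each, beside 0.413% of genes in the viscous and 0.298% in the elastic gel. On counts summed over both gels of each number, edgeR called 0 of 6 beside 0% of 15239 genes, of which 795 had an unadjusted p under 0.05, and DESeq2 called 0 of 6 beside 0.696%.

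The genotype result turned on which control number was used. Against control C1 alone, in the viscous gel, edgeR called Il1a (log2 fold change 2.67, adjusted p = 0.0096), Il1b (2.89, adjusted p = 0.0373), Il6 (2.87, adjusted p = 0.0135) and Il10 (3.27, adjusted p = 0.0362) higher in Jak2 V617F cells, 4 of 6 beside 4.98% of genes. Tnf stood at 1.64 with an edgeR adjusted p of 0.0521. In the elastic gel the same fit called 5 of 6 beside 7.79% of genes, with log2 fold changes of 3.51 for Il1a, 3.53 for Il1b, 4.27 for Il6, 4.74 for Il10 and 1.89 for Tnf. On summed counts it called the same 5 beside 16.6% of genes, with 3.12 for Il1a, 3.29 for Il1b, 3.56 for Il6, 3.96 for Il10 and 1.78 for Tnf. In each of these fits the control is 1 number with no replicate of its own, and its spread is taken to be that of the Jak2 V617F libraries.

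Against control C2 alone the control is again 1 number with no replicate, so the errors and intervals hold no spread between control numbers. In the viscous gel the values were −0.099 for Il1a (SE 0.19), 0.33 for Il1b (SE 0.43), 0.50 for Il6 (SE 0.26), 0.40 for Il10 (SE 0.45), −0.032 for Tnf (SE 0.30) and −0.48 for Il1rn (SE 0.28). In the elastic gel they lay between −0.28 for Il10 and 0.10 for Il6. Every 95% interval of these values included 0. On summed counts they were −0.031 for Il1a (SE 0.15), 0.063 for Il1b (SE 0.24), 0.21 for Il6 (SE 0.15), −0.080 for Il10 (SE 0.31), −0.090 for Tnf (SE 0.17) and −0.29 for Il1rn (SE 0.19). Against control C1 the value of Il1a on summed counts was 3.12. Il1rn was not called against either control number, at 0.39 (SE 0.19) against C1. The 2 control numbers therefore gave different answers for the agonists, Il6, Il10 and Tnf, and these data hold no further control library to set beside them.

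**Figure D4:**
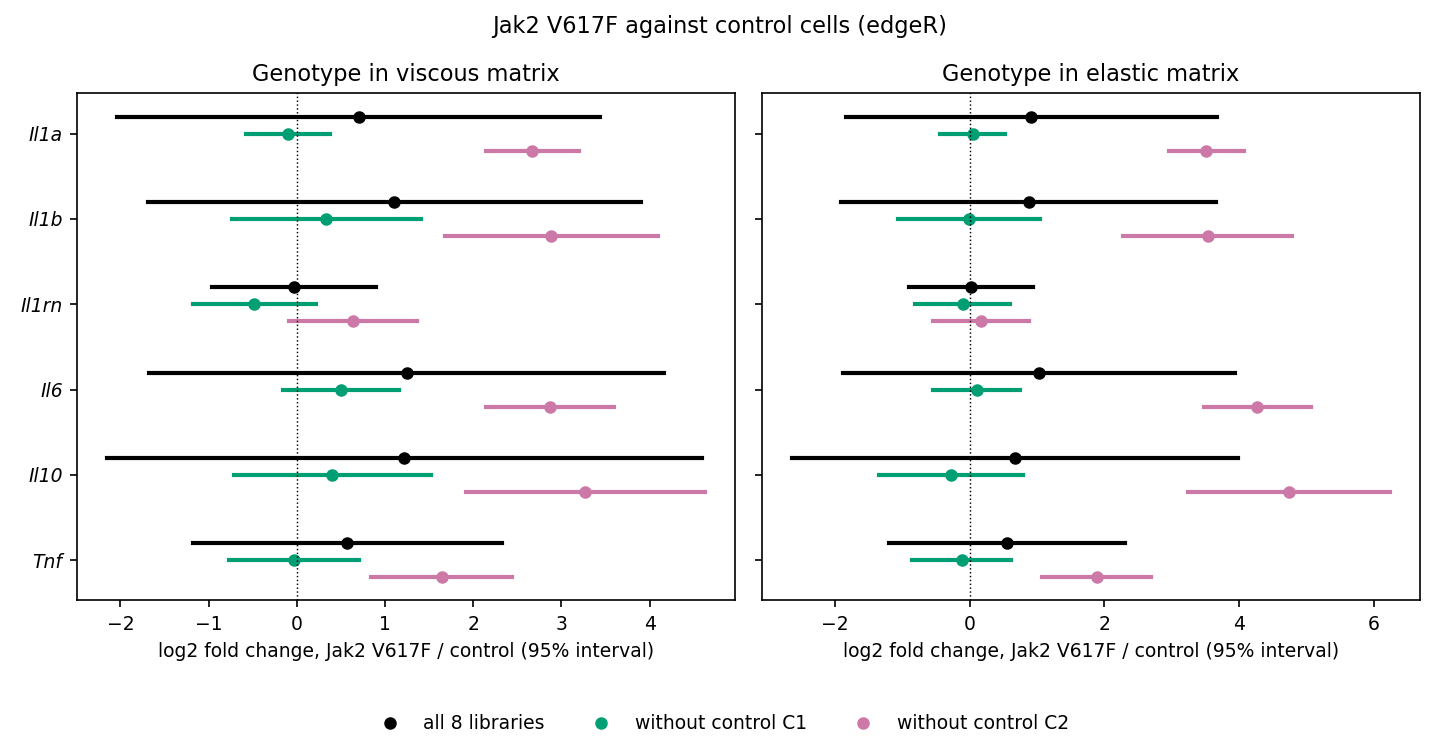
Jak2 V617F minus control log2 fold change of each gene in the viscous gel and in the elastic gel, with 95% intervals from edgeR fits on both control numbers and with either left out. With either control number left out, the spread comes from the Jak2 V617F pairs alone. With C1 left out the estimates lie between −0.48 and 0.50 and every interval includes 0. With C2 left out those of Il1a, Il1b, Il6 and Il10 lie between 2.67 and 4.74.

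The antagonist and agonist transcripts did not keep one proportion across libraries. The ratio of Il1rn counts to Il1a counts in the viscous gel was 1.09 in control C1, 0.348 in control C2, 0.208 in Jak2 V617F J1 and 0.327 in Jak2 V617F J2. In the elastic gel it was 1.93 in control C1, 0.211 in control C2, 0.177 in Jak2 V617F J1 and 0.204 in Jak2 V617F J2. The ratio was highest in number C1 in both gels, and in the other 3 numbers it was lower in the elastic than in the viscous library. Because counts are not corrected for length, these ratios are read only between libraries and not as a molar balance.

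The ratio of Il1rn counts to Il1b counts in the viscous gel was 1.46 in control C1, 0.542 in control C2, 0.181 in Jak2 V617F J1 and 0.563 in Jak2 V617F J2. In the elastic gel it was 1.79, 0.186, 0.151 and 0.201 in the same order. Number C1 was again highest and was higher in its elastic than in its viscous library, where the other 3 numbers were lower. The ratio between the agonists, Il1b to Il1a counts, did not set C1 apart. It was 0.744 and 1.08 in the viscous and elastic libraries of control C1, 0.642 and 1.13 in those of control C2, 1.15 and 1.17 in those of Jak2 V617F J1, and 0.581 and 1.01 in those of Jak2 V617F J2. Both agonists were therefore lower in C1 than in C2 by similar factors. Il1rn was lower by less, with C2 above C1 by 2.16-fold in the viscous and 1.19-fold in the elastic gel.

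**Figure D5:**
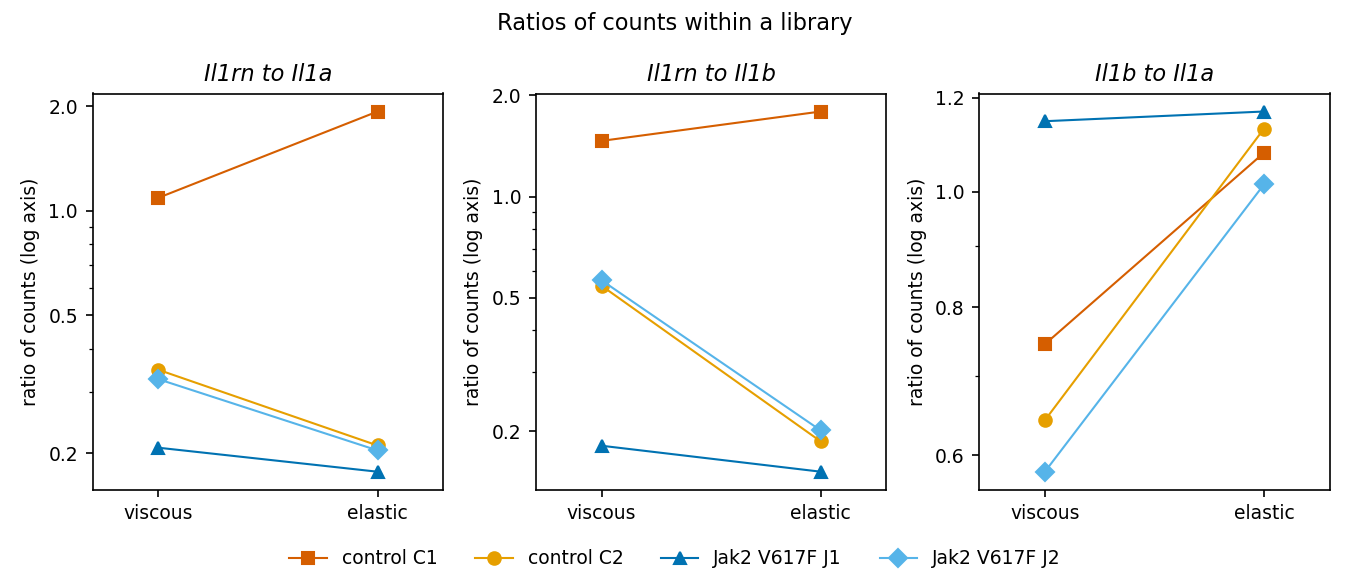
Ratios of Il1rn to Il1a, Il1rn to Il1b and Il1b to Il1a counts in each library, on a logarithmic axis. Control C1 lies above all other libraries for both antagonist ratios, at 1.09 and 1.93 for Il1a and at 1.46 and 1.79 for Il1b, and within the range of the others for Il1b to Il1a.

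Since number C1 alone would tie the genes together, likeness among them is described over the other 6 libraries, which share title numbers in pairs and are not independent. On log2 CPM, Il1b went with Il6 (Pearson r = 0.97, Spearman rho = 0.77, n = 6) and with Il1a (r = 0.90, rho = 0.89, n = 6). Il10 went with Tnf (r = 0.90, rho = 0.94, n = 6). Il1rn went with neither Il1b (r = −0.047, rho = −0.14, n = 6) nor Il6 (r = −0.064, rho = −0.26, n = 6), and more with Tnf (r = 0.78, rho = 0.37, n = 6). Ranked by r among 8771 other genes, Il6 was at 44 and Il1a at 269 for Il1b. Tnf was at 32 for Il10 and at 718 for Il1rn. Many other genes were thus more alike to each than these, and libraries of both gels enter the values. Over all 8 libraries and 8772 genes with a mean of at least 10 CPM, the gene most like Il1a was ENSMUSG00000031596 (r = 0.997, and 0.988 without C1) and the gene most like Il1b was ENSMUSG00000051439 (r = 0.996, and 0.986 without C1). These rows could not be named.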

How the data were processed

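RNA-seq of 8 libraries was analysed from the authors' deposited table of whole-number counts per Ensembl gene ID, which is not normalized. All 8 per-library files held the same counts as that table. The submitters' processing notes name the build GRCm38, Salmon and DESeq2. Versions, the summing of transcripts to genes and any use of strand are not given in the sources used here. No row summed to less than 10 counts, and genes that share reads could not be separated.

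Groups came from the labels. edgeR 4.0.16 (R 4.3.3) was run with TMM, filterByExpr and the quasi-likelihood test on 4 groups of 2 libraries, with a second fit on counts summed over both gels of a number; Benjamini-Hochberg adjustment ran over all tested genes and a call means an adjusted p under 0.05. Log2 CPM used a prior count of 2. DESeq2 1.42.0 and limma 3.58.1 gave alternatives. Scripts were checked on simulated counts. The text names the 6 genes and, for Il1a and Il1b, the row with the highest correlation. Members, lists and tests were chosen with earlier results of these data known. Gene lists and cell type markers drawn up by symbol were not analysed here, since 0 IDs of the table could be matched to a symbol. No replicate pair of a group held near-identical counts, with a chi-square per degree of freedom of 19.1 or more.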

Additional observations from a re-analysis of the deposited data

How the results depend on the processing

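No setting tried made any of the 6 genes change sign and pass the threshold at once. Of 744 alternative values of the members' log2 fold changes, 629 kept their sign and their side of the threshold. Another 94 changed sign and 21 newly passed it. Each main count of called genes was 0, and 96 of 124 alternative counts were also 0. The other 28 counts ran from 1 to 2664. All 28 alternative levels and ratios moved by less than 1 SD of the libraries within groups. That bound is loose, since C1 widens the SD, to 3.50 for log2 CPM of Il10 in elastic control cells. It does not show that the antagonist ratios hold whichever control number is kept. DESeq2 size factors and TMM gave the same calls. Depth limits Il10 most, at 39 and 77 counts in number C1. Against 0 genes called by edgeR in each comparison, DESeq2 called 134 for the matrix averaged over genotypes, 35 in control cells, 35 in Jak2 V617F cells, 61 and 44 for genotype in the viscous and elastic gel, 106 on summed counts and 2 for the difference of matrix effects. For the averaged matrix effect edgeR called 1 without the low-count filter, 1 with at least 50 counts in 2 libraries, 2 without C1 and 1 without C2. Within the genotypes it called 1 in control cells without C2, 1 in Jak2 V617F cells without either control number and 1 with only the 4 Jak2 V617F libraries. For genotype it called 771 and 1206 in the viscous and elastic gel without C2, 0 to 2664 on summed counts as each number was left out, and 2 when averaged over 8 libraries. DESeq2 without C1, chosen after seeing the data as was limma-voom without C1, called 345 averaged, 104 in control cells, 189 in Jak2 V617F cells, 8 for the contrast of these matrix effects, and 170 and 58 for genotype in the viscous and elastic gel, with 0 of the 6 genes among the last 3 counts.

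With the title number as a replicate block, 5 genes were called for the averaged matrix effect as a fixed and 2 as a random block, and 1 in control cells as a random block, none of them among the 6. The unadjusted p-values of the 6 genes for the averaged effect, 0.182 to 0.480 without it, were 0.0041 to 0.11 under the fixed block in edgeR, with adjusted p-values from 0.190 to 0.532, and the median log2 fold change was 0.35 in control and 0.78 in Jak2 V617F cells. The deviations of same-numbered libraries from their group means had a correlation of 0.532 for control and of −0.0894 for Jak2 V617F numbers. In a group of 2 libraries the deviations are equal and opposite, so each genotype gives 1 such value and not 2. These values do not settle whether the numbers pair the libraries. The main fits did not pair them, which leaves the gap between C1 and C2 in the error of the matrix comparison. Under the fixed replicate block the difference of matrix effects became 0.23 for Il1b, −0.014 for Il1rn, 0.52 for Il6, 0.17 for Il10 and 0.12 for Tnf, and under the random block 0.27, −0.0073, 0.55, 0.37 and 0.12. limma-voom gave 0.28 for Il1b, −0.0047 for Il1rn, 0.57 for Il6, 0.34 for Il10 and 0.13 for Tnf, and 0.030 for Il1rn by genotype in the viscous gel.

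Without C2 the averaged matrix effect of Il10 was −0.0071, those in control cells were −0.062 for Il1a, −0.56 for Il6 and −0.74 for Il10, and the difference of matrix effects was 0.65 for Il1b, −0.47 for Il1rn, 1.40 for Il6, 1.46 for Il10 and 0.24 for Tnf. Il1rn by genotype in the viscous gel was then 0.64. Without C1 the matrix effect of Il1rn in control cells was −0.083 in edgeR, −0.079 in DESeq2 and −0.083 in limma-voom. Genotype values without C1 were −0.099 for Il1a and −0.032 for Tnf in the viscous gel, and −0.0060 for Il1b, −0.10 for Il1rn, −0.28 for Il10 and −0.12 for Tnf in the elastic gel. DESeq2 without C1 gave −0.094 for Il1a and −0.028 for Tnf in the viscous gel, and −0.098 for Il1rn, −0.28 for Il10 and −0.11 for Tnf in the elastic gel. limma-voom without C1 gave −0.099 for Il1a and −0.076 for Tnf in the viscous gel, and −0.012 for Il1b, −0.11 for Il1rn, −0.32 for Il10 and −0.12 for Tnf in the elastic gel. Il1rn on summed counts was −0.0039 with the stricter filter and −0.0067 averaged over 8 libraries. The cause of these changes was not tested beyond the libraries left out.

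Leaving out 1 library at a time, the averaged matrix effect ran from −0.61 to 1.66 for Il1a, −0.087 to 2.12 for Il1b, −0.66 to 1.76 for Il6, −1.02 to 2.03 for Il10 and −0.27 to 0.92 for Tnf. In control cells it ran from −2.01 to 2.53 for Il1a, −1.29 to 3.13 for Il1b, −0.21 to 0.91 for Il1rn, −2.17 to 2.68 for Il6, −2.77 to 3.32 for Il10 and −0.92 to 1.46 for Tnf. The difference of matrix effects ran from −1.75 to 2.80 for Il1a, −2.01 to 2.41 for Il1b, −0.61 to 0.50 for Il1rn, −1.84 to 3.01 for Il6, −2.59 to 3.50 for Il10 and −1.08 to 1.30 for Tnf. Genotype values in the viscous gel ran from −0.099 to 2.66 for Il1a, −0.48 to 0.63 for Il1rn and −0.032 to 1.64 for Tnf. In the elastic gel they ran from −0.0056 to 3.52 for Il1b, −0.10 to 0.16 for Il1rn, −0.28 to 4.73 for Il10 and −0.12 to 1.87 for Tnf. On summed counts they ran from −0.031 to 3.12 for Il1a, −0.29 to 0.39 for Il1rn, −0.080 to 3.96 for Il10 and −0.090 to 1.78 for Tnf. These ends came from leaving out a control library, of C1 or of C2. The matrix effect in Jak2 V617F cells kept its sign, from 0.77 to 0.81 for Il1a, 0.70 to 1.71 for Il1b, 0.014 to 0.65 for Il1rn, 0.60 to 1.14 for Il6, 0.33 to 1.28 for Il10 and 0.059 to 0.79 for Tnf.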
